A study of Rattus norvegicus with 6 samples.

Results

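The CCN matricellular family was examined in primary rat chondrocytes with and without all-trans retinoic acid (RA), through the 5 genes Ccn1 (Cyr61), Ccn2 (Ctgf), Ccn3 (Nov), Ccn4 (Wisp1) and Ccn5 (Wisp2). The members were chosen by gene name, all 5 of them among the 18923 genes of the deposited tables, and all 5 passed the filter on low counts that left 13438 genes for testing. The sixth gene of the family, Ccn6 (Wisp3), lies outside this choice and is given beside the others. Chondrocytes came from the cartilage of wild-type (WT) female Sprague-Dawley rats that were 24 h old and free of specific pathogens, and were used at passage 1 or 2. The 3 CON samples were kept for 24 h in high-glucose DMEM with serum and antibiotics, and the 3 RA samples in that medium with 1 µM RA for 24 h. No vehicle for the CON samples is named in the sources used here. The study describes its replicates as biologically independent, and neither it nor the labels tie them to separate animals or cultures. The p-values measure the spread between these samples, which may be technical in part if they share a source.

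CCN proteins are secreted into the extracellular matrix, where they do not build the scaffold but bind integrins, heparan sulfate proteoglycans and growth factors and so modulate adhesion and growth factor signalling. Ccn1 and Ccn2 are textbook targets of YAP and TAZ, the coactivators that Hippo kinases hold back and that reach DNA through the TEAD factors. Ccn2 is also induced by TGF-beta and is needed for growth plate cartilage, while Ccn3 is often described as opposing it, and the Wisp genes were named for their induction by Wnt signalling. Ccn5 lacks the C-terminal cystine-knot domain that the other members carry.

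The promoters of Ccn1 and Ccn2 are shown because both genes are classical TEAD targets and Ccn2 was the member with the lowest p. RefSeq promoter windows, which hold 250 bases before and 50 after a gene's start on the assembly GRCr8, were matched for 2 of the 5 members. The runs below are the 250 bases before the start, read 5′ to 3′ along the gene, and capitals mark each match to the TEAD motif GGAATG on either strand (CATTCC where it is read on the other strand). The Ccn2 run lies at chr1:22624615-22624864 and the Ccn1 run at chr2:237225690-237225939, both on the minus strand of GRCr8.
Ccn2: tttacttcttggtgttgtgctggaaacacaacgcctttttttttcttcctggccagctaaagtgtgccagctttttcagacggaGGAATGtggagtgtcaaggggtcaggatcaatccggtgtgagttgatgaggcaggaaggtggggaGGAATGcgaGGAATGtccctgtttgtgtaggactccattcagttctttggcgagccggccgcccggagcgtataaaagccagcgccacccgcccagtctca
Ccn1: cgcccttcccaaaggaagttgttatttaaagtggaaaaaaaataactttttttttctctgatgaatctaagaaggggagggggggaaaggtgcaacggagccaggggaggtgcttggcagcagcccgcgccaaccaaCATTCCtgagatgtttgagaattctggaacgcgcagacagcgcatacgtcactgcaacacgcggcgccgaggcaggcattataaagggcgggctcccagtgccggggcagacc
The Ccn2 window held 3 matches, all in the direction of the gene, whose first bases stood 166, 101 and 92 bases before the start. The Ccn1 window held 1 match, on the other strand, 113 bases before the start. Among 33469 windows of the same length, 14.2% held at least 1 match and 0.0956% held 3 or more. The window of Ccn6 held none. Of the 13 windows matched for a list of other YAP/TAZ target genes, 3 held this motif, and AGGTCA, the hexamer of retinoid receptor sites, also stood in 3 of them. Searched in the same way, AGGTCA stood in 16.2% of all windows, GTCTAGAC (a palindromic SMAD box) in 0.197%, TGANTCA (AP-1) in 7.33%, the SRF CArG box in 1.64% and CTTTGAA (TCF/LEF) in 5.4%, and none of these stood in the windows of Ccn1, Ccn2 or Ccn6. No match therefore overlapped another of the motifs searched. Other forms of the SMAD and retinoid receptor sites, and motifs not listed here, were not searched. A match is a description of letters, and their absence says only that they are not in this window.

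**Figure D1:**
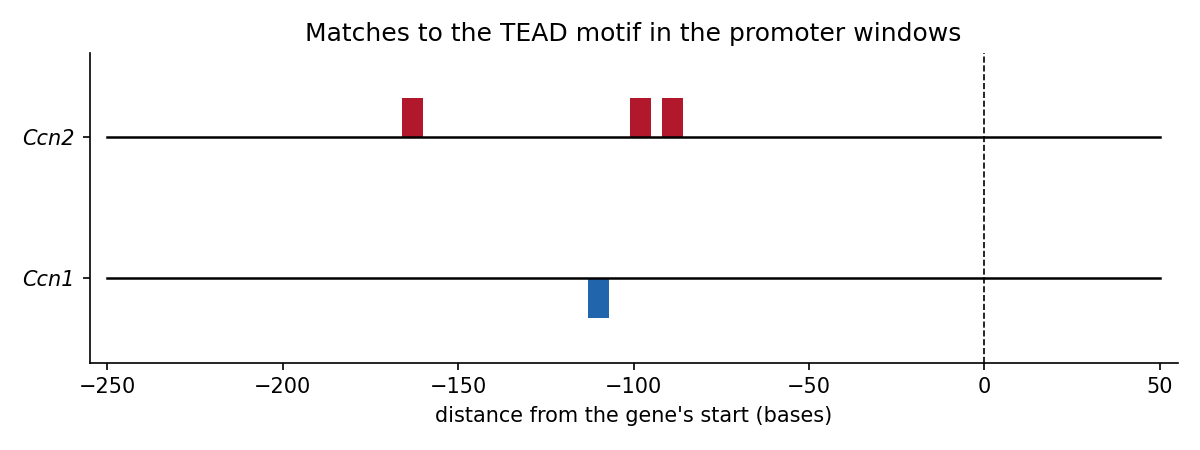
Matches to the TEAD motif GGAATG in the promoter windows of Ccn2 and Ccn1, by distance in bases from the gene's start (dashed line). Red boxes above the line are matches in the gene's direction and the blue box below it is on the other strand; Ccn2 shows 3 boxes and Ccn1 shows 1.

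Ccn2 carried most of the family's RNA and rose with RA by 1.46-fold, while no other member passed the test. With edgeR's quasi-likelihood test and Benjamini-Hochberg adjustment over all 13438 genes, 0 of the 5 members were DEGs (adjusted p under 0.05 with a log2 fold change of more than 0.58 either way), against a background of 4.96% of all genes (667, of which 359 were higher and 308 lower). By adjusted p alone 1 of the 5 passed, Ccn2, against 9.82% of all genes in either direction and 5.31% in the higher direction. At an unadjusted p below 0.05, 3 of the 5 passed, Ccn2, Ccn5 and Ccn3, against 24% of all genes. DESeq2 and limma also gave 0 DEGs in the family. The median log2 fold change was 0.17 over the 5 members and -0.0057 over all genes tested. The FPKM of the groups did not overlap for 2 of the 5 members, Ccn2 and Ccn5, against 32.2% of all genes.

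Ccn2, which codes for connective tissue growth factor, was the highest member in every sample. Its level was 669, 714 and 698 FPKM (a count scaled by gene length and by sequencing depth, so that levels are per length) in CON samples 1, 2 and 3, and 1019, 1039 and 1006 FPKM in RA samples 1, 2 and 3. All 3 RA samples lay above all CON samples, and the spread within either group was small beside the distance between them. The mean rose from 694 ± 22.7 to 1021 ± 16.2 FPKM (SD, n = 3 each). The log2 fold change was 0.55 (SE 0.0473, 95% interval 0.44 to 0.65), with an adjusted p of 2.53e-04 from edgeR. This was the 112th lowest p of all genes. The interval reached past the fold-change threshold of 0.58 on one side and stayed above 0 on the other. The gene (ENSRNOG00000015036) ranked between the 46th and the 94th highest FPKM of all genes across samples, with counts of 55742 to 84486, so counting error was small. In all 16 alternative fits the change stayed between 0.52 and 0.56, passed the adjusted p and stayed short of the fold threshold.

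Ccn1 (ENSRNOG00000014350), the other classical YAP target and the second highest member, had 116, 134 and 126 FPKM in CON samples 1, 2 and 3 and 152, 148 and 129 FPKM in RA samples 1, 2 and 3. RA sample 3 lay below CON sample 2, so the groups overlapped. The log2 fold change was 0.17 (SE 0.0805, 95% interval -0.0094 to 0.36, adjusted p = 0.232 with edgeR). A difference of this size was not resolved with 3 samples per group, and a rise of up to 0.36 remained inside the interval.

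Ccn3 (ENSRNOG00000008697), coding for the member often set against Ccn2, was at 79.8, 76.6 and 79.6 FPKM in CON samples 1, 2 and 3. In RA samples 1, 2 and 3 it was at 68.6, 67.4 and 76.8 FPKM. RA samples 1 and 2 lay below all CON samples, and RA sample 3 lay just above the lowest CON sample. The log2 fold change was -0.16 (SE 0.0688, 95% interval -0.32 to -0.0042), and the adjusted p of 0.198 from edgeR missed the threshold.

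Ccn5 (ENSRNOG00000010666), the member without the C-terminal domain, had 51.8, 61.1 and 60.3 FPKM in CON samples 1, 2 and 3. In RA samples 1, 2 and 3 it had 69.3, 72.3 and 71.3 FPKM. Every RA sample lay above every CON sample, and CON sample 1 was the lowest of all. The mean was 57.7 ± 5.18 FPKM in CON and 70.9 ± 1.51 FPKM in RA (SD, n = 3 each). The log2 fold change of 0.28 (SE 0.0778, 95% interval 0.11 to 0.46) had an adjusted p of 0.0577 with edgeR, just beyond the threshold. The call depended on the fit: 8 of 16 alternatives put the adjusted p below 0.05, and its range was 0.0122 to 0.209. Without CON sample 1 the log2 fold change was 0.21 with an adjusted p of 0.0122, and without CON sample 3 it was 0.33 with an adjusted p of 0.0487. Either omission brought the number of members past the adjusted p to 2.

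Ccn4 (ENSRNOG00000007078), named for its induction by Wnt1, was the lowest of the 5 members, with 34.8, 35.0 and 32.7 FPKM in CON samples 1, 2 and 3. RA samples 1, 2 and 3 had 35.0, 32.2 and 31.5 FPKM, and the groups overlapped. The log2 fold change was -0.07 (SE 0.0639, 95% interval -0.21 to 0.08, adjusted p = 0.563 with edgeR), an interval that holds no change beyond 0.21 in size. Its value was -0.11 without RA sample 1 and -0.04 without RA sample 3.

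Ccn6 (ENSRNOG00000000597) had the lowest counts of the family. They were 26, 45 and 42 in CON samples 1, 2 and 3 and 21, 28 and 15 in RA samples 1, 2 and 3. The groups overlapped, and the mean level was 0.457 ± 0.129 FPKM in CON and 0.285 ± 0.0935 FPKM in RA (SD, n = 3 each). The log2 fold change of -0.69 had an SE of 0.34 and an adjusted p of 0.26 with edgeR. Over 15 alternatives the value ran from -0.96 (without RA sample 2) to -0.18 (limma at a pseudocount of 1). The interval from -1.47 to 0.08 shows how little these counts resolve.

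**Figure D2:**
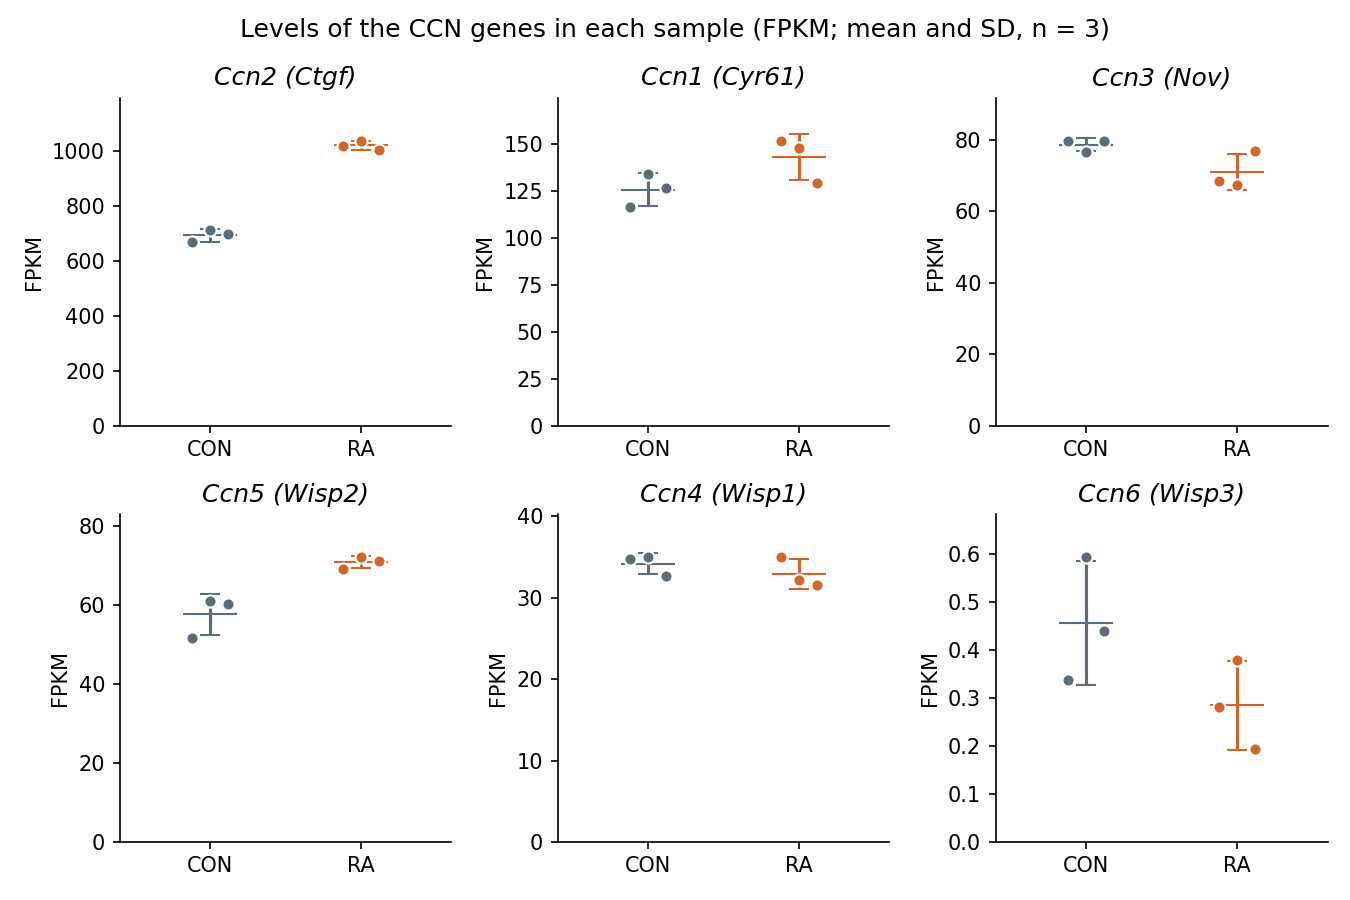
FPKM of the 6 CCN genes in each sample, with a panel and a linear axis from 0 for each gene; points are samples, the horizontal line is the mean and the bars are the SD (n = 3). The RA points of Ccn2 (1006 to 1039 FPKM) and Ccn5 (69.3 to 72.3 FPKM) lie above all CON points, and those of the other 4 genes overlap with CON.

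**Figure D3:**
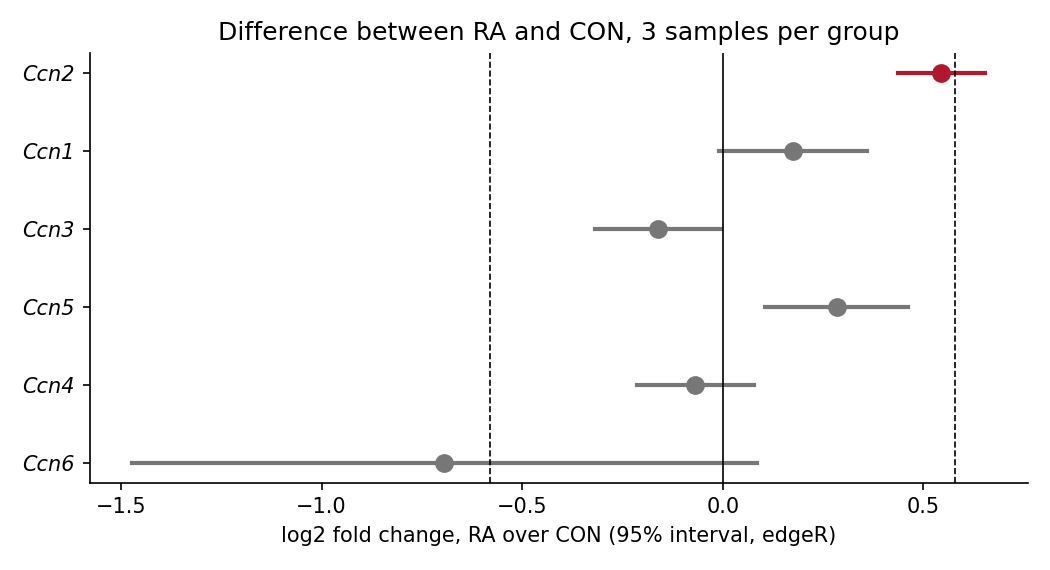
Log2 fold change of RA over CON from edgeR with its 95% interval for each CCN gene; the dashed lines mark 0.58 in either direction and red marks an adjusted p below 0.05. Ccn2 at 0.55 is the red point, and the interval of Ccn6 is the widest, from -1.47 to 0.08.

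In CON the levels followed the order Ccn2, Ccn1, Ccn3, Ccn5 and Ccn4, and no neighbours in that order overlapped over the 3 samples. In RA the order was the same at the top and the bottom, but Ccn3 and Ccn5 could not be ordered, with mean levels of 70.9 and 70.9 FPKM and overlapping samples. Added together, the 5 members had 990 ± 34.9 FPKM in CON and 1339 ± 22.0 FPKM in RA (SD, n = 3 each), a ratio of 1.35. Ccn2 took 70.1 ± 0.187% of this sum in CON and 76.3 ± 0.372% in RA. The other members each took a smaller mean share in RA, from 12.7% to 10.7% for Ccn1, from 7.95% to 5.30% for Ccn3, from 5.82% to 5.30% for Ccn5 and from 3.46% to 2.46% for Ccn4. The share of Ccn5 was lower although its level was higher, since the sum grew with Ccn2.

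**Figure D4:**
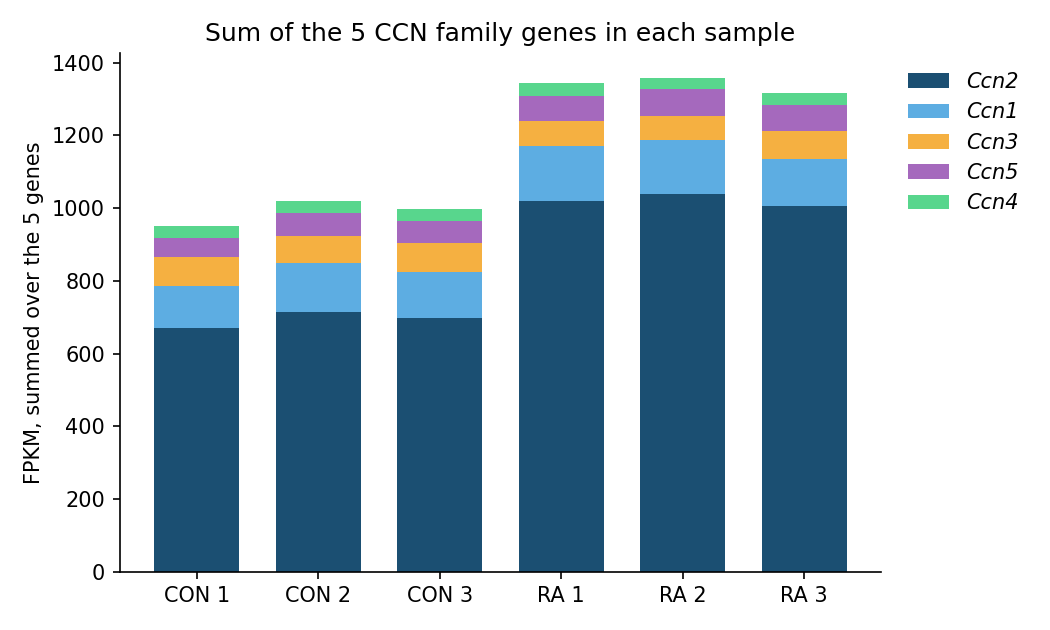
FPKM of the 5 CCN family genes stacked in each of the 6 samples, on a linear axis from 0. The CON columns end between 952 and 1021 FPKM and the RA columns between 1315 and 1359 FPKM, and the Ccn2 segment at the base is the one that grows most.

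Ratios between members within a sample do not depend on the scaling between samples. Of the 10 pairs of members, 7 had ratios whose groups did not overlap, among them all 4 pairs that hold Ccn2. No such share was computed over pairs of other genes, so the count is a description. An exact two-sided permutation test over the samples gave p = 0.1 for each of these pairs (adjusted p = 0.143 over the 10 pairs). This is the smallest p that this permutation test can give with 3 against 3 samples, so it could not reach 0.05 whatever the size of the difference. The ratio of Ccn2 to Ccn3 ran from 8.39 to 9.33 in CON and from 13.1 to 15.4 in RA. Ccn2 to Ccn1 ran from 5.33 to 5.75 in CON and from 6.71 to 7.78 in RA. Ccn2 to Ccn4 ran from 19.2 to 21.3 and then from 29.2 to 32.3. The ratio of Ccn3 to Ccn5 lay between 1.25 and 1.54 in CON and between 0.933 and 1.08 in RA. The pairs that overlapped were Ccn1 with Ccn3, Ccn1 with Ccn5 and Ccn3 with Ccn4.

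The Hippo pathway, whose kinases restrain YAP (Yap1) and TAZ (Wwtr1), was followed through 21 genes, all tested. None was a DEG with edgeR (4.96% of all genes were), and 2 of 21 passed the adjusted p, both higher in RA, a share close to the 9.82% of all genes. These were Amotl1 (log2 fold change 0.55), an angiomotin that binds YAP, and Frmd6 (0.27), a scaffold of the upstream pathway, both named after their values were seen. Amotl1 became a DEG without CON sample 2 (0.60) or CON sample 3 (0.59). Without CON sample 1 the number past the adjusted p was 5, and it was 1 without CON sample 2 or any single RA sample, where Frmd6 lost its call. Yap1 stood at 42.1 ± 3.07 FPKM in CON and 49.4 ± 2.07 FPKM in RA (n = 3 each, SD). On the log2 scale the difference was 0.22, with adjusted p = 0.113. Wwtr1 had a log2 fold change of 0.23, and Tead1, Tead2, Tead3 and Tead4, the DNA-binding partners, had 0.05, 0.24, 0.19 and -0.24, with adjusted p of 0.0585 or more. Tead4 passed without CON sample 1 (adjusted p = 0.0140) and Tead2 without CON sample 3 (adjusted p = 0.0336), and the sign for Tead1 turned without CON sample 2 (-0.0023). Without CON sample 1 the log2 fold change was 0.07 for Wwtr1 and 0.10 for Tead3, and without CON sample 3 it was 0.39 for Tead2.

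A list of 20 known YAP/TAZ target genes, without the CCN genes, had 19 genes tested. Of these, 4 were DEGs, all higher in RA, and 7 passed the adjusted p, 6 higher and 1 lower, beside 4.96% DEGs and 9.82% past the adjusted p over all genes. Without CON sample 1 that number was 12. The median log2 fold change of the 19 was 0.14, beside 0.17 for the CCN genes and -0.0057 for all genes. Igfbp3, which codes for a binding protein of insulin-like growth factors, stood at 33.1 ± 2.73 FPKM in CON and 127 ± 4.58 FPKM in RA (n = 3 each, SD), and the log2 fold change was 1.92, with adjusted p = 7.70e-06 from edgeR. The receptor tyrosine kinase gene Axl (0.68) and the stress gene Gadd45a (0.66) were also DEGs in all 16 alternatives. Fjx1 was a DEG at 0.62, and its call was lost without any single sample other than CON sample 3 and, with all samples, with limma at a pseudocount of 1. In the lower direction Ccdc80, a matrix protein gene named after its value was seen, changed by -0.30. Rbms3, also named after its value was seen, had the lowest value of the list at -0.80, with an adjusted p of 0.0513 from edgeR. Of the 19 genes, 12 had a value above 0. The classical target Ankrd1 was near detection at 0.405 ± 0.0689 FPKM in CON and 0.591 ± 0.165 FPKM in RA (SD, n = 3 each), with an adjusted p of 0.316. It was named after its value was seen.

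SRF and its MRTF coactivators drive cytoskeletal genes and can act on Ccn1 and Ccn2. Of 10 listed genes 9 were tested, and 1 was a DEG, lower in RA (4.96% of all genes were DEGs). Acta2, which codes for smooth muscle actin, stood at 107 ± 6.67 FPKM in CON and 60.8 ± 4.10 FPKM in RA (n = 3 each, SD). This fall gave a log2 fold change of -0.83, with adjusted p = 4.03e-04 from edgeR. By adjusted p alone 1 of the 9 passed, beside 9.82% of all genes. This number was 3 without CON sample 1, where 755 of all genes were DEGs in place of 667. Srf had a log2 fold change of 0.28 and an adjusted p of 0.222, and without CON sample 1 its value was 0.14.

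TGF-beta signalling, which induces Ccn2 in many cells, was represented by 15 genes, all tested. DEGs numbered 3, with Tgfbr3 (0.78) and Smad7 (0.66) higher and Tgfbi (-0.66) lower in RA, beside 4.96% of all genes. By adjusted p alone 4 of the 15 passed, 3 higher and 1 lower, beside 9.82% of all genes. Tgfbr3 is a coreceptor, Smad7 an inhibitor induced by the pathway and Tgfbi a matrix protein gene named for its induction by TGF-beta. Smad7 lost its call without CON sample 1 (0.54) and without RA sample 1 (adjusted p = 0.0580). Ltbp1, which codes for a protein that stores latent TGF-beta and was named after its value was seen, was the only other gene of the list past the adjusted p (log2 fold change 0.52). Among the ligands Tgfb1 had a log2 fold change of 0.32 with an adjusted p of 0.0666, and it passed without CON sample 1 (adjusted p = 0.0154) or CON sample 3 (adjusted p = 0.0205), and with all samples under DESeq2 (adjusted p = 0.0176) or scaling by total counts alone (adjusted p = 0.0494). Tgfb2 had 0.09, with 0.16 and an adjusted p of 0.0384 without CON sample 1 and 0.05 without CON sample 2 or CON sample 3, and Tgfb3 had 0.07.

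The Wisp genes were set beside feedback targets of Wnt/beta-catenin, of which 8 of 12 listed genes were tested. DEGs numbered 2, both higher in RA, beside 4.96% of all genes. By adjusted p alone 4 of the 8 passed, 2 higher and 2 lower, beside 9.82% of all genes. Axin2, a scaffold that limits the pathway, stood at 1.64 ± 0.108 FPKM in CON and 4.02 ± 0.0985 FPKM in RA (n = 3 each, SD), which gave a log2 fold change of 1.28, with adjusted p = 1.42e-04 from edgeR. Notum, a secreted enzyme that inactivates Wnt ligands, had 0.77, and its call was lost when any single sample was left out, without the filter on low counts (adjusted p = 0.053 with edgeR) and with limma at a pseudocount of 1 (0.39, short of the fold threshold). The inhibitor genes Nkd1 (-0.57) and Apcdd1 (-0.50), named after their values were seen, passed the adjusted p in the lower direction. Nkd1 became a DEG without CON sample 2 (-0.63) or RA sample 1 (-0.63), and with upper-quartile scaling. Apcdd1 passed in 6 of 16 alternatives: it lost its call in every fit without a single sample apart from CON sample 1, and with all samples under total counts, no filter and each limma fit (adjusted p from 0.0503 to 0.0744). The number past the adjusted p moved from 4 to 2 without any single sample other than CON sample 1, and without the filter on low counts. Ccn4 and Ccn5 are described above at -0.07 and 0.28.

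Receptors and binding partners of CCN proteins made up 19 genes, of which 16 were tested. Of these, 1 was a DEG and 7 passed the adjusted p, 5 higher and 2 lower in RA, beside 4.96% and 9.82% of all genes. Without CON sample 2 or RA sample 1 the 7 became 3, and without RA sample 2 or RA sample 3 they became 2. With limma at a pseudocount of 1 they became 4. Itga6, the integrin alpha6 chain through which CCN1 and CCN2 bind cells, stood at 48.5 ± 2.60 FPKM in CON and 73.5 ± 2.57 FPKM in RA (n = 3 each, SD). Its log2 fold change was 0.59 (adjusted p = 5.14e-04 with edgeR), and it went under the fold threshold when RA sample 1 or either of CON samples 2 and 3 was omitted, to as little as 0.56, and with upper-quartile scaling of all samples. Egfr, a receptor gene named after its value was seen, passed the adjusted p at 0.44 in all 16 alternatives.

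**Figure D5:**
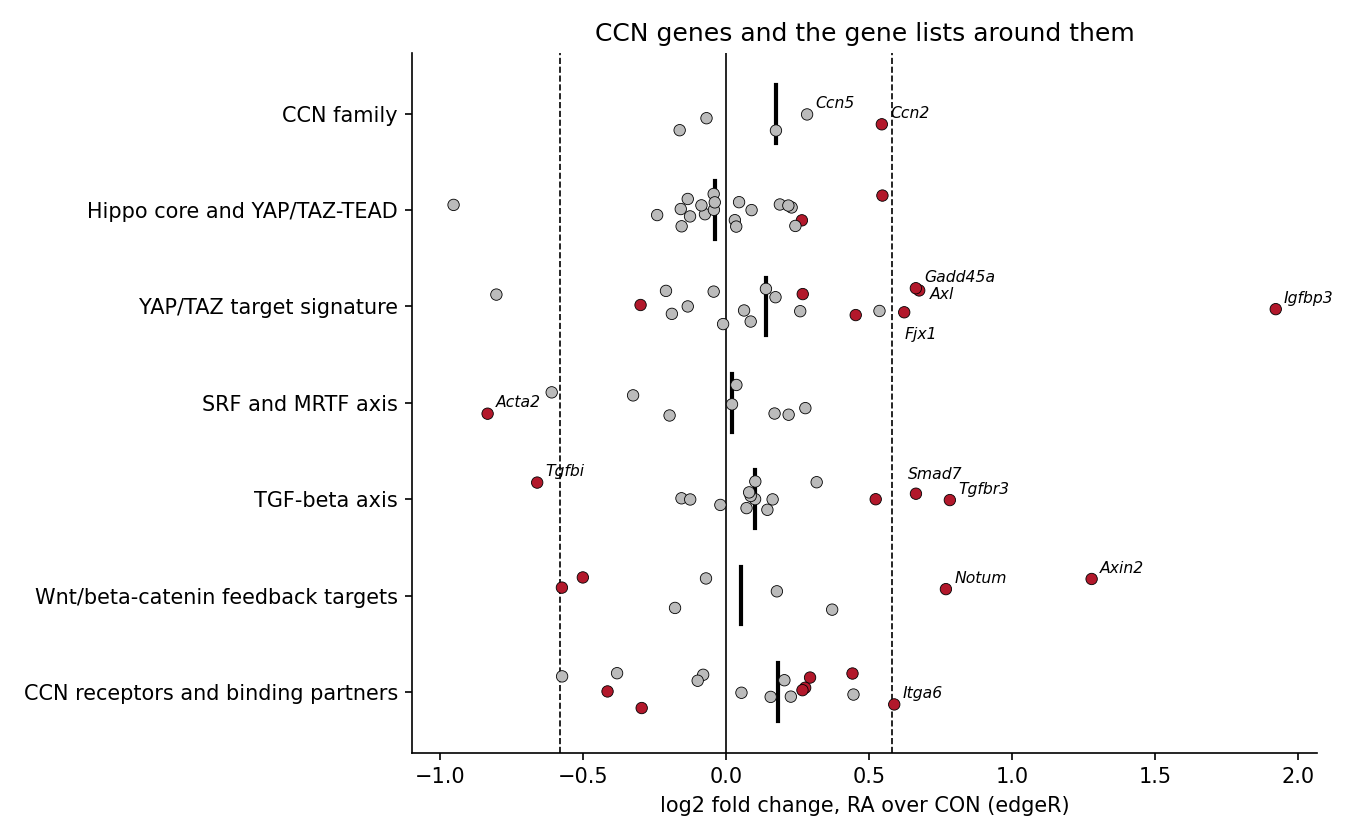
Log2 fold change of RA over CON from edgeR for each tested gene (points) of the CCN family and 6 lists around it; red marks an adjusted p below 0.05, thick lines are list medians and dashed lines mark 0.58 in either direction. Igfbp3 at 1.92 and Axin2 at 1.28 lie farthest to the right, Ccn2 lies just inside the dashed line at 0.55, and points jitter vertically only for legibility.

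The genes most like each member over the 6 samples were found by Pearson's r of log2 CPM among 8371 genes with a mean level of at least 5 FPKM. The 6 points are 3 CON and 3 RA samples. Genes that differ between the groups therefore tend to correlate with Ccn2, positively or negatively, and the values are a description. For Ccn2 they were Pole (r = 1.00), Sfxn3 (0.998) and Etv5 (0.998), and 651 genes had an r above 0.9. For Ccn5 they were Stat6 (0.999), Myo18a (0.998) and Sqstm1 (0.998), with 916 genes above 0.9. For Ccn1 they were Taf5l (0.978), Coq7 (0.978) and Tmem198b (0.976), with 60 such genes. The values for Ccn3 were 0.980 for Zhx2, 0.975 for Pdia4 and 0.975 for Cutc, with 50 such genes. For Ccn4 they were Sgms2 (0.981), Mindy3 (0.978) and LOC100909657 (0.971), with 66 such genes. Members whose groups overlapped had fewer close neighbours than Ccn2 and Ccn5.

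Genes that respond to RA and markers of cell types were read in the same fit, where 4.96% of all genes were DEGs and 9.82% passed the adjusted p. The RA-degrading enzyme genes Cyp26a1 (log2 fold change 3.35) and Cyp26b1 (2.65) rose, among 6 higher and 1 lower DEGs of 9 retinoid response genes. All 7 chondrocyte markers were present, with a summed level of 6320 to 8360 FPKM in CON and 4028 to 4344 FPKM in RA, and 6 of 7 were lower DEGs. The 7 fibroblast and perichondrium markers had a summed level of 3829 to 5014 FPKM in CON and 4971 to 5219 FPKM in RA. By adjusted p 3 of the 7 passed, all higher, beside 5.31% of all genes in that direction. Most of the sum was Col1a1 (means of 2976 FPKM in CON and 3478 FPKM in RA) and Col3a1 (1009 and 1018 FPKM), neither past the adjusted p. Dpt had a log2 fold change of -0.73 (adjusted p = 0.204 with edgeR), and 5 of the 7 lay above 0. Col1a1, Col3a1 and Dpt were named after their values were seen. Markers of macrophages (13.2 to 14.6 FPKM in CON and 16.1 to 17.3 FPKM in RA, none called of 3 tested), endothelium (5.46 to 8.02 and 6.18 to 6.83 FPKM, none called of 2 tested) and skeletal muscle (4.60 to 5.93 and 6.57 to 7.59 FPKM, none called of 1 tested) were low. Each of these sums was nearly all 1 gene, named after its values were seen. Mean levels in CON and RA were 12.9 and 15.3 FPKM for Cd14 among macrophage markers, 6.81 and 6.32 FPKM for Egfl7 among endothelial markers and 5.09 and 6.72 FPKM for Des among muscle markers. Of the markers also named after their values were seen, Adgre1 was listed at 0 in CON, and Cdh5, Kdr, Myh3, Ckm and Ptprc had means below 0.1 FPKM in both groups. Osteoblast markers had 11.9 to 13.5 FPKM in CON and 12.3 to 12.9 FPKM in RA, and of 4 tested 2 passed the adjusted p, Ibsp as a DEG that was higher in RA (log2 fold change 1.47) and Alpl in the lower direction (-0.42), the latter named after its value was seen. The part of any change in cell makeup in the rise of Ccn2 was not tested. In bulk RNA, fewer cells of a type and less RNA per cell cannot be told apart. Total counts were between 29370025 and 38007486 per sample, and log2 CPM correlated between samples at 0.983 to 0.992 within groups and 0.974 to 0.984 between groups.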

How the data were processed

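Poly(A) RNA of 3 CON and 3 RA samples was sequenced with a NEBNext Ultra kit on an Illumina HiSeq instrument. Samples were grouped and numbered from the labels. The authors deposited for each sample 1 raw read count per gene and, beside it, the FPKM of each gene. These deposited FPKM values equal the count divided by gene length and by the sample's total count, with no further normalization: for all 14600 genes with a count in every sample, the gene length implied by count and FPKM had a coefficient of variation below 1e-06 over the samples. The submitters' processing notes list HISAT2, HTSeq 0.13.5 and Rnor_6.0; whether strand was used, and how reads shared by similar genes were treated, is not given in the sources used here.

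Counts were fitted with edgeR 4.0.16 (glmQLFit and glmQLFTest, TMM, filterByExpr with a minimum count of 10, Benjamini-Hochberg adjustment over all genes tested) in R 4.3.3, for all 6 samples without covariates. Standard errors came from the F statistic. FPKM gave the levels. The members and gene lists, and the rule for named genes (all CCN genes, the DEGs of each list, and Yap1, Wwtr1, the Tead, Tgfb and Srf genes and Axin2), were chosen with earlier results of these data known. For the lists of retinoid response genes and cell type markers, the DEGs are given mainly as counts. Genes named outside the rule are marked in the text. Foxf2, Mrtfb, Sp5, Dkk1, Znrf3, Pecam1, Tie1 and Myog were not matched here and not analysed. Other listed genes without a value in the text enter the counts only.

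Alternatives were DESeq2 1.42.0, limma 3.58.1 on log2 FPKM with pseudocounts of 0.1, 1 and 0.01, edgeR with other scalings, no filter, a filter of 1 FPKM in 3 samples, a replicate block and each sample left out in turn. The edgeR step was tested on simulated data, with changed genes drawn at random from those past the filter. Of 98 genes given a log2 fold change of 0.55 in size, 50% passed the adjusted p. Of 99 genes given a size of 1, 74.7% passed, and 7 unchanged genes also passed. Promoter windows were searched on both strands for the letters given.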

Additional observations from a re-analysis of the deposited data

How the results depend on the processing

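Over 16 alternatives (6 of them leaving out 1 sample), the log2 fold changes of the 5 members kept their signs. Ccn5 passed the adjusted p with DESeq2 (0.28), with total counts (0.30), with limma on log2 FPKM at pseudocounts of 0.1, 1 and 0.01 (0.30, 0.30 and 0.30) and with the replicate block (0.29). In each of these fits 2 members passed, against 1 in the reported fit. With a sample left out, Ccn5 was between 0.21 and 0.33 and 1 to 2 members passed. Calling by adjusted p alone made 1 member a call in place of 0 and 1319 genes in place of 667. An unadjusted p with the fold change gave 1017 genes, limma with a pseudocount of 1 gave 434, and the replicate block gave 684. With a sample left out, 480 to 755 genes were DEGs, and Tead1 was between -0.0023 and 0.086. The cause of these differences was not tested. Same-numbered samples of the groups did not deviate together (correlations of 0.0928, -0.0123 and 0.0118), so the numbers were not taken to pair them. Under the replicate block Tgfb1 passed (adjusted p = 0.0217 with edgeR) and Notum did not (adjusted p = 0.0644). Ccn6 was not tested under the filter of 1 FPKM. The scalings moved the median of all genes by less than 0.1 on the log2 scale.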
